A study of Rattus norvegicus with 2 samples.

Results

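The cytosolic ribosomal proteins are the protein parts of the ribosome that makes most of the cell's proteins. Their genes were taken as the rat symbols that start with Rpl or Rps and a digit, or with Rplp, leaving out the S6 kinase genes, Rps19bp1 and names ending in ps. The rule found 82 of the 15442 genes named on the arrays, and 142 probes report them. Of these, 47 code for the large subunit, 31 for the small subunit and 4 for the stalk of the large subunit. By symbol, 10 count as paralogs, near copies of another member, and these include both Rps4x and Rps4y2. Signal well above the local background was found for 79 of the 82 genes, on both arrays and in both channels. Rpl27l2, Rpl3l and Rps7-ps20 were not well above background on either array. The last is a pseudogene-type name that the rule keeps because it does not end in ps.

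RNA came from primary neural stem cells (neural precursor cells) of the embryonic brain cortex of SD rats at embryonic day 14, all grown in N2 medium with 10 ng/mL bFGF, which maintains their division. All cells were transiently transfected by nucleofection with 4 µg of plasmid: MSCV-IRES-EGFP, the empty vector with a fluorescent reporter, or rBcl-2-MSCV-IRES-EGFP, which adds rat Bcl-2, an inhibitor of cell death. Cells were then kept in N2 with bFGF, or moved to NB medium without bFGF for 2 days, which starts differentiation. On the withdrawal array the red channel (Cy5) held vector cells without bFGF, and on the array labelled Bcl-2 it held rBcl-2 cells with bFGF; the green channel (Cy3) of both held vector cells with bFGF. The withdrawal array asks what changes when differentiation is started by taking bFGF away, and the other asks for the effect of Bcl-2 while bFGF is present. The cells without bFGF were also in another medium, so the loss of bFGF and the change of medium cannot be told apart.

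There is 1 array for each comparison and the dyes were not swapped, so no value below has a replicate check or a test, and each describes these hybridisations alone. The labels do not say that the green samples are separate cultures, nor which share of the cells took up the plasmid. In such bulk RNA, fewer cells of a type and less RNA per cell cannot be told apart. Markers of neural precursors (9 of 9 on the arrays) and of neurons (5 of 5) were measured, with median log2 ratios of 0.23 and 0.50 on the withdrawal array and of -0.26 (8 genes) and -0.34 on the array labelled Bcl-2. The 3 markers of dividing cells had medians of -0.00082 and 0.16. Genes within these lists differed in direction. On the withdrawal array the precursor markers ran from -0.49 (Vim) to 1.26 (Fabp7), and on the other from -0.91 (Fabp7) to 0.56 (Vim). Those of dividing cells ran from -0.36 (Pcna) to 0.14 (Ccnb1) and from -0.16 (Mki67) to 0.29 (Pcna). Markers of other cells were also found above background: 4 of 5 astrocyte genes (Gfap was not), 5 of 5 fibroblast genes, 5 of 5 of the oligodendrocyte lineage, 3 of 5 of microglia and blood, and 2 of 5 of endothelium and pericyte (Kdr and Pdgfrb). The astrocyte and fibroblast lists had medians of 0.99 and 0.55 on the withdrawal array and of -0.86 and -1.41 on the array labelled Bcl-2. Their part in the results below was not tested.

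Which way the ratios run remains unclear. Over all gene spots the arrays had a Pearson's r of -0.67 (-0.12 with the scanner software's own ratio), although the labels give both the same control in green. The single Bcl2 probe read 0.39 on the withdrawal array and -0.02 on the array labelled Bcl-2. Whether that probe lies within the insert of the plasmid is not known here, so it checks the label only in part. Ratios are therefore given as red over green, as labelled, and medians also with the sign turned.

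Ribosomal protein genes are among the most strongly expressed of any cell, and their products are made in near equal amounts. In vertebrates this is done largely in translation: their mRNAs begin with a C followed by a run of pyrimidines, the terminal oligopyrimidine (TOP) tract, through which the kinase mTOR and the protein Larp1 turn their translation on with growth signals and off without them. Transcription factors such as Myc also raise their synthesis in dividing cells. An array of total RNA reads the amount of mRNA, not its translation.

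The sequences around the annotated transcription start are shown for 8 members that the results below turn on. A TOP tract lies at the start of the mRNA, and these windows differ in their runs of C and T. They are taken from RefSeq promoters of the GRCr8 assembly, which hold 1 entry for 65 members. Each is written on the gene's strand, with 20 bases before the start and 20 from it on, and capitals mark the longest run of at least 6 C or T letters that overlaps the 10 bases before the start or the first 10 from it on.
Rpl19: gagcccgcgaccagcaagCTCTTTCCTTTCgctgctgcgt
Rps10: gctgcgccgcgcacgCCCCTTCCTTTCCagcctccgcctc
Rpl23: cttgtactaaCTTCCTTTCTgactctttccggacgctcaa
Rplp0: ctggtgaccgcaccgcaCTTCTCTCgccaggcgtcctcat
Rps26: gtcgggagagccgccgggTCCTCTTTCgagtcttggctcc
Rps4x: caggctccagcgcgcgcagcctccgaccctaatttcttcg
Rpl22l1: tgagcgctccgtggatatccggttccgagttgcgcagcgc
Rpl41: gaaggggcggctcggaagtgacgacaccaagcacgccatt

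The windows lie at chr10:83519044-83519083 (+) for Rpl19, chr20:5700725-5700764 (-) for Rps10, chr10:83272165-83272204 (-) for Rpl23 and chr12:46718371-46718410 (-) for Rplp0. Those of Rps26, Rps4x, Rpl22l1 and Rpl41 lie at chr7:1643385-1643424 (-), chrX:71342902-71342941 (-), chr2:113683176-113683215 (+) and chr7:1563478-1563517 (-). The first 5 have runs of 12, 13, 10, 8 and 9 letters, while the longest runs within that reach in Rps4x, Rpl22l1 and Rpl41 have 5, 4 and 3. A run of at least 6 was found in 49 of the 65 members (75.4%) and in 28.3% of the 33469 promoters of the table. The annotated start base was C in 33 members (50.8%) and in 24.1% of all promoters. The letters CTTTCC stood whole within that reach in 13 of the 65 members and in 0.774% of all promoters, and GGAAAG, their reverse complement, in 1 member (1.54%) and in 0.822% of all promoters; both were read on the gene's strand. A match describes these letters and an annotated start only; a start that is off by some bases moves the window.

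On the withdrawal array, after loess, the ribosomal protein genes lay around the middle of all genes. The median of their log2 ratios was 0.02 (-0.02 if the sign is turned), with quartiles of -0.09 and 0.15, beside 0.03 over all 10852 genes measured. The ratios ranged from -0.59 for Rpl22l1 to 0.59 for Rpl41. Of the members 44 (55.7%) lay above 0, near the 54.2% of all genes, and 35 lay below. The spread between genes had an SD of 0.21, against 0.40 over all genes, 0.22 over the mitochondrial ribosomal proteins and 0.23 over the initiation factors described further on. A ratio of at least 1.2-fold (0.263 on the log2 scale) with all probes of the gene on 1 side was reached by 9 members towards red, where 23.9% of all genes did so, and by 6 towards green, where 15.6% did so. None of the 79 reached 2-fold, which 2.42% of all genes did towards red and 0.47% towards green. This place in the middle depends on the processing. Without loess the median lay higher relative to all genes. The share of members at least 1.2-fold towards red was then above that of all genes, as given further on.

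On the array labelled Bcl-2 most members lay slightly above 0. The median was 0.16 (-0.16 if the sign is turned), with quartiles of 0.10 and 0.29, beside -0.01 over all 10241 genes. Of the 79 members, 71 lay above 0, against 48.2% of all genes. At least 1.2-fold towards red were 23 members, against 13.8% of all genes, and 1 member (Rps4y2) was so towards green, against 20.8%. The highest ratio was 0.65 for Rpl15 and again no member reached 2-fold, against 0.557% and 2% of all genes. The size of the shift depends on the processing: the median was 0.09 with the scanner software's ratio, where all genes had 0.05, and, relative to all genes, 0.04 in the authors' deposited value table and 0.59 without loess. It also depends on how bright the probes are, as shown further on. With the scanner software's ratio the share of members at least 1.2-fold towards red was below the 27.9% of all genes.

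**Figure D1:**
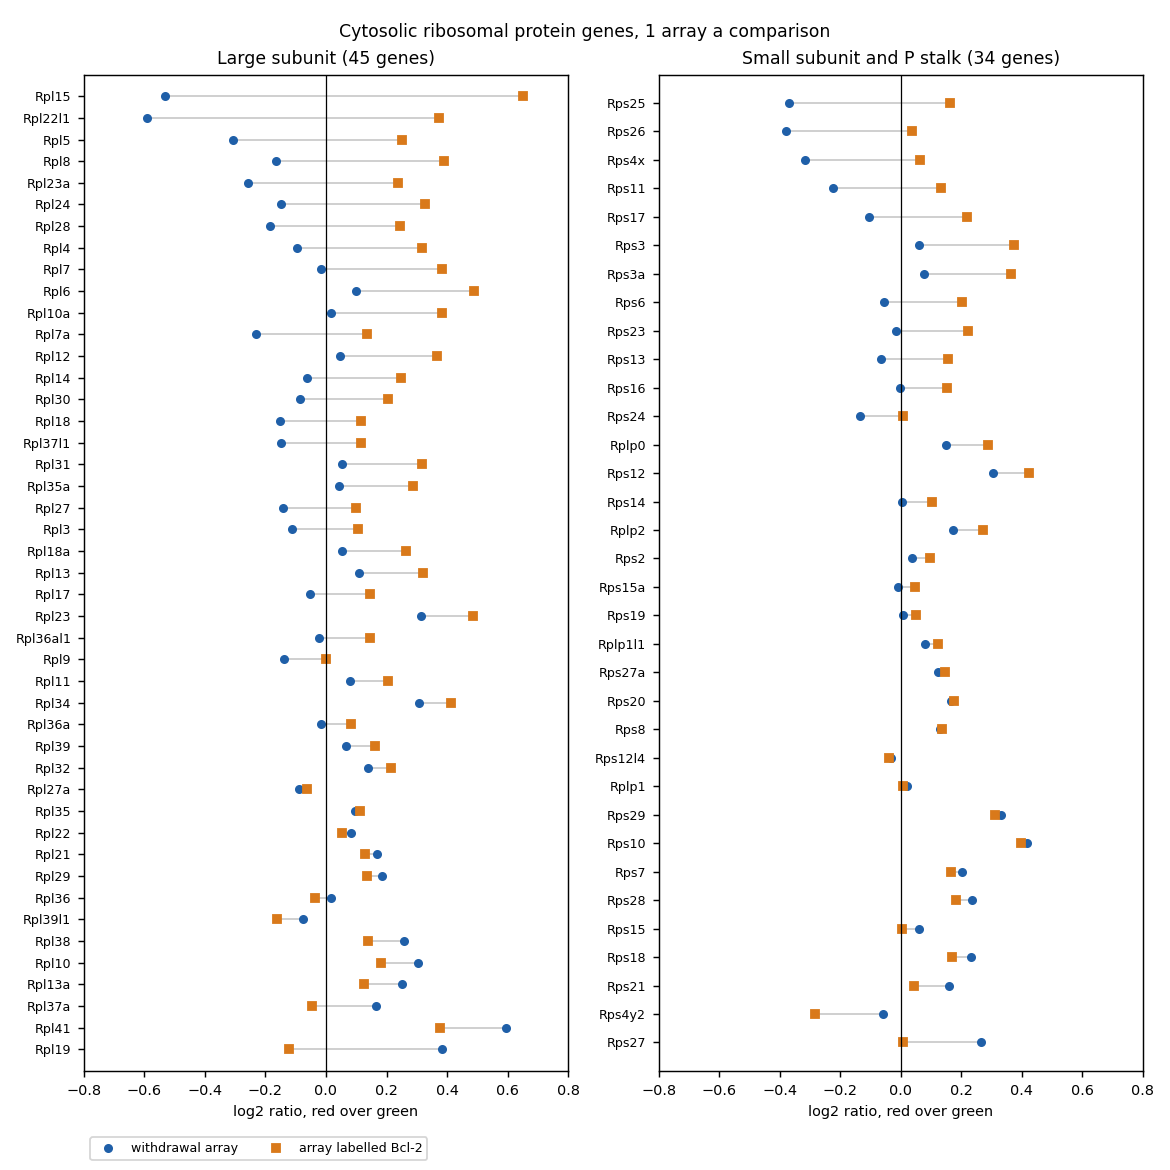
Log2 ratio of red over green of each of the 79 measured ribosomal protein genes on the withdrawal array (circles) and on the array labelled Bcl-2 (squares), joined by a line and ordered by the difference of both; each point is 1 array. Rpl15 and Rpl22l1 have the longest lines, from -0.53 to 0.65 and from -0.59 to 0.37, while Rpl19 runs the other way, from 0.38 to -0.12.

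In the ratio plot of single genes some members lie on opposite sides of 0 on the arrays and others above 0 on both, while 5 (Rpl9, Rpl27a, Rpl39l1, Rps4y2 and Rps12l4) lie below 0 on both. As a typical member, Rpl39, a small protein lining the exit tunnel, read 0.07 and 0.16, which are near the medians. On the withdrawal array its log2 signal was 15.84 in green and 15.91 in red, and on the other it was 15.85 and 16.01, so the 4 channels were within a narrow band. The other typical member, Rps16, read -0.0012 and 0.15, but its probes disagreed. They lay at -0.20 and 0.20 on the withdrawal array and at 0.33 and -0.03 on the array labelled Bcl-2. The spots of 1 probe on 1 array had a pooled SD of 0.067 for the withdrawal array (1180 probes printed 5 or more times) and of 0.057 for the array labelled Bcl-2 (1144 probes). It is the error used here, and it covers no difference between cultures.

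Rpl15, a large-subunit protein whose gene is mutated in some patients with the inherited anaemia of ribosomal proteins, had the widest gap between the arrays. On the withdrawal array its log2 signal was 10.50 in green (vector with bFGF) and 9.97 in red (vector without bFGF). On the array labelled Bcl-2 it was 9.93 in green (vector with bFGF) and 10.59 in red (rBcl-2 with bFGF). The green channels, labelled as the same condition, differed by -0.56 (Bcl-2 minus withdrawal), and each lay near the red channel of the other array. The ratio was -0.53 ± 0.04 (SD over 9 spots of 1 probe) for the withdrawal array and 0.65 ± 0.04 (SD over 8 spots) for the array labelled Bcl-2, or 0.692-fold and 1.57-fold. The difference of 1.18, Bcl-2 minus withdrawal, was the only one among the members of at least 2-fold, a size reached by 3.2% of all genes above 0 and by 8.79% below. It lay between 1.04 and 1.45 in the alternatives run. The single Rpl15 probe had a mean log2 signal of 10.2 on each array, far below the median of 16.2 over the member probes. How well it reports the Rpl15 mRNA was not tested.

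Rpl22l1, the paralog of Rpl22, followed in the same direction. The withdrawal array gave log2 signals of 12.67 (green) and 12.07 (red), and the other array 12.18 (green) and 12.56 (red). The ratios were -0.59 and 0.37, so the order of red and green was turned between the arrays. Both of its probes took part, reading -0.66 and -0.53 for the withdrawal array, then 0.44 and 0.31. Rpl22 itself read 0.08 and 0.05, with both arrays on the same side of 0. Of all members, Rpl15 and Rpl22l1 alone had a ratio of at least 1.2-fold on both arrays with opposite sign. The pattern is not particular to ribosomal proteins of the cytosol. Among the genes of related lists, Mrps34 (-0.73 and 0.35), Mrps16 (0.29 and -0.29) and Eif1a (-0.84 and 0.40) had such ratios too. How many of all genes did so was not counted.

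Other genes towards green on the withdrawal array had a smaller ratio towards red on the other. Rps25, which some viral and cellular mRNAs need for initiation within the message, had withdrawal-array log2 signals of 14.42 (green) and 14.06 (red), and 14.09 (green) and 14.25 (red) on the array labelled Bcl-2. Green was thus the highest of the 4 channels on the first array and the next to lowest on the second. Its ratios were -0.37 and 0.16. Rps26, which lies at the mRNA exit channel, read -0.38 and 0.04, from log2 signals of 14.95 (green) and 14.57 (red), then 14.68 (green) and 14.72 (red).

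Rpl5, which with Rpl11 carries a small ribosomal RNA and can bind the p53 regulator Mdm2, read -0.31 and 0.25. Without loess its ratio on the withdrawal array was 0.02 relative to all genes, so that its direction there depends on the correction. Its partner Rpl11 read 0.08 and 0.21. Rpl8, which sits near the catalytic centre, read -0.17 and 0.39. Its difference of 0.56 was like that of Rpl5. Rpl23a, Rpl24 and Rpl28 had differences of 0.50, 0.48 and 0.43.

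Over all members the difference, Bcl-2 minus withdrawal, had a median of 0.14 (quartiles -0.02 and 0.30) beside -0.04 over the 10162 genes measured on both arrays. It was at least 1.2-fold above 0 in 25 members, against 25.8% of all genes, and below 0 in 1, against 33.7%. The share of 25 in 79 is 31.6%, so the count above 0 is near that of genes at large. A dye effect that both arrays have in common cancels in this difference. In the authors' deposited value table the median was -0.01.

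Rpl19, a large-subunit protein that reaches across to the small subunit, was the 1 member with a difference of at least 1.2-fold below 0. Its withdrawal-array log2 signals were 16.35 (green) and 16.74 (red), and those of the other array 16.68 (green) and 16.56 (red). Both probes gave this order: 0.36 and 0.41 on the withdrawal array, then -0.15 and -0.10. The difference was -0.51 and lay between -0.67 and -0.40 in the alternatives, although its ratio on the array labelled Bcl-2 was 0.36 without loess. Rps27 (0.26 and 0.01) had the next difference in that direction, -0.26, followed by Rps4y2 and Rpl41 at -0.22 each and Rpl37a (0.16 and -0.05) at -0.21. The probes of Rps27, Rps4y2 and Rpl37a lay on both sides of 0 on at least 1 array.

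**Figure D2:**
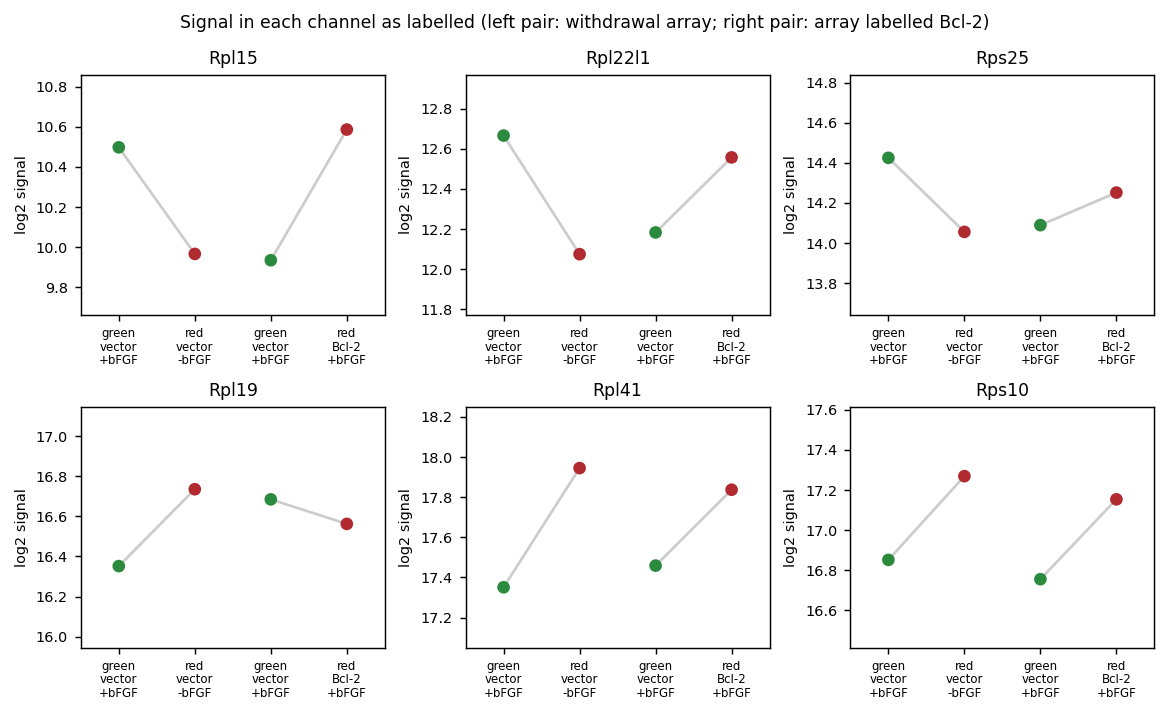
Log2 signal, after loess and scaling of the arrays to each other, of 6 ribosomal protein genes in each of the 4 channels, green and red of the withdrawal array on the left and of the array labelled Bcl-2 on the right; each point is 1 channel of 1 array. Rpl15, Rpl22l1 and Rps25 go down and then up, Rpl19 goes up and then down, and Rpl41 and Rps10 are higher in red on both arrays.

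Another set of members was higher in red on both arrays, whatever the red sample was. Rpl41, the smallest ribosomal protein, had withdrawal-array log2 signals of 17.35 (green) and 17.95 (red), and 17.46 (green) and 17.84 (red) on the other array. Its ratios of 0.59 and 0.38 add to 0.97, the highest sum among the members. Rps10, at the head of the small subunit, had log2 signals of 16.85 (green) and 17.27 (red), then 16.76 (green) and 17.15 (red), with ratios of 0.42 and 0.40. Its difference between the arrays was -0.02, within the spot spread of 0.088 for a sum or difference. Rpl23 (0.31 and 0.49), Rps12 (0.31 and 0.42), Rpl34 (0.31 and 0.41) and Rps29 (0.33 and 0.31) had the same pattern. Rpl6 read 0.10 and 0.49.

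The sum of the log2 ratios of both arrays keeps an effect of the dyes and cancels a change of opposite sign. It also keeps a change in the same direction on both arrays, such as a difference of the shared green control from both red samples. Without a dye swap these cannot be told apart. Over the members the sum had a median of 0.20 (-0.20 if the sign is turned, quartiles 0.03 and 0.37) beside 0.00 over all genes. The sum was above 0 in 60 members, against 49.9% of all genes. It was at least 1.2-fold above 0 in 32 members, against 11.7% of all genes, and below 0 in 2 (Rps4y2 and Rps26), against 9.69%. No member's sum reached 2-fold, against 0.63% and 0.0492% of all genes. For Rps26 the sum turned to 0.18 without loess.

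Across the member probes the sum was higher where the probe was brighter, while the median of the other probes rose only beyond a signal of 16. The median mean log2 signal was 16.2 over the 138 member probes above background in all 4 channels and 9.63 over the 17163 other such probes. At a signal of 17 or more the sum had a median of 0.59 over 18 member probes and of 0.66 over 25 other probes, and each of these probes lay above 0. From 16 to 17 the medians were 0.30 for 68 member probes and 0.19 for 277 others. From 15 to 16 they were 0.04 for 33 member probes and -0.01 for 410 others, and from 14 to 15 they were -0.18 for 8 member probes and -0.06 for 710 others. The medians of members and others thus had the same sign from 16 up and opposite signs from 15 to 16, and the part of brightness in the sums of the members was not tested. Pearson's r of the sum with the signal was 0.50 across the member probes and -0.06 across the others; probes of 1 array share its scan and correction, so these describe the arrays only.

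**Figure D3:**
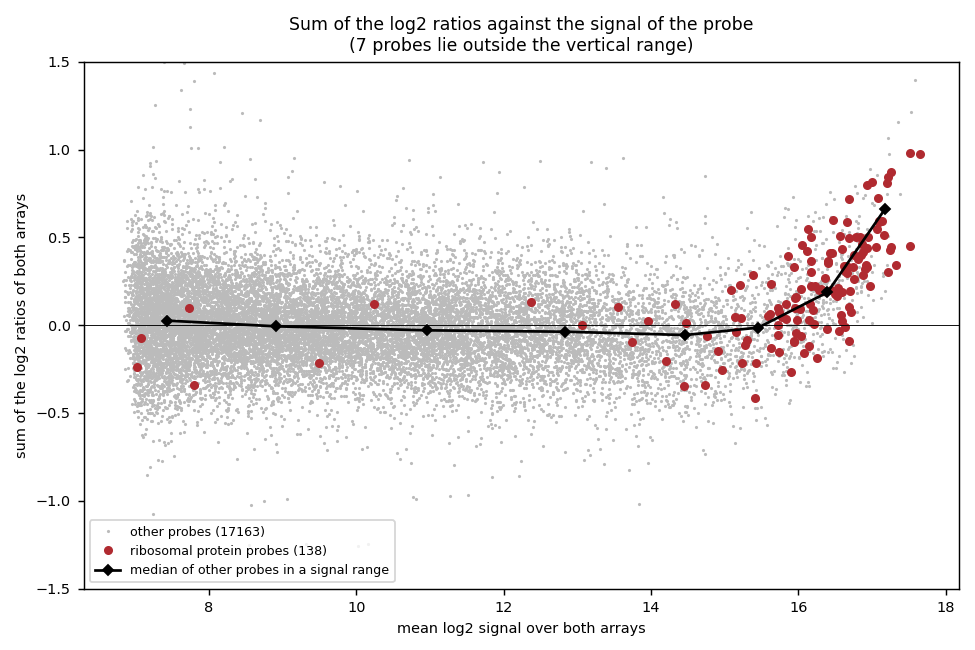
Sum of the log2 ratios of both arrays against the mean log2 signal of the probe, for 138 ribosomal protein probes (large points) and 17163 other probes (small points); diamonds give the median of the other probes in ranges of signal. The medians stay near 0 up to a signal of 16 and reach 0.19 and 0.66 beyond it, where most ribosomal protein probes lie.

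With only the probes under a mean log2 signal of 16, which leaves 41 members, the medians were -0.08 on the withdrawal array, 0.12 on the array labelled Bcl-2 and 0.00 for the sum. No member was then at least 1.2-fold towards red on the withdrawal array, against 23.7% of all genes, and 5 were on the other, against 13.6%. Rps2, a small-subunit protein at the mRNA entry with 34 pseudogenes named for it in RefSeq, has 4 probes that read 0.28, 0.06, 0.01 and -0.33 on the withdrawal array, at mean log2 signals of 17.1, 16.7, 16.8 and 15.4. In Rpl7 the brighter probe had the lower ratio there, -0.12 at a signal of 16.7 beside 0.09 at 16.2. The median of 0.04 for Rps2 joins probes that disagree by more than 1.2-fold on both sides. Probes of 24 measured members lay on both sides of 0 on the withdrawal array, and another 33 members have a single probe, which allows no such comparison.

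Channels of the same colour can be set against each other, which leaves out the colour but brings in the array. The red channel of the array labelled Bcl-2 minus that of the withdrawal array had a median of 0.08 over the members (SD 0.12), from -0.17 for Rpl19 to 0.62 for Rpl15, beside -0.02 (SD 0.37) over 9349 other genes. The green channels, labelled as the same condition, differed by a median of -0.07 (SD 0.16), from -0.56 for Rpl15 to 0.33 for Rpl19, beside 0.01 (SD 0.40) over the others. Rpl15 and Rpl19 were thus at opposite ends of both comparisons. Green of the array labelled Bcl-2 minus red of the withdrawal array had an SD of 0.13 over the other genes, less than that of the green channels, and of 0.15 over the members. For red of the array labelled Bcl-2 minus green of the withdrawal array the SD was 0.14 over the other genes and 0.14 over the members.

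By role, the large and the small subunit each had a median of 0.02 on the withdrawal array. On the array labelled Bcl-2 the medians were 0.20 over 45 large-subunit genes and 0.15 over 30 small-subunit genes, with 16 (35.6%) and 5 genes (16.7%) at least 1.2-fold towards red, against 13.8% of all genes. Among the small-subunit genes, Rps3, which lines the mRNA entry, read 0.37 on the array labelled Bcl-2 and 0.06 on the withdrawal array. Rps3a read 0.37 and 0.08 in that order. Rps6, the target of the S6 kinases below mTOR, read 0.20 on the array labelled Bcl-2 and -0.06 on the withdrawal array. The difference had medians of 0.21 for the large and 0.06 for the small subunit. This gap was not tested, and in probes under a signal of 16 the small subunit had the higher difference, 0.23.

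The stalk proteins, which bring the translation factors to the ribosome, all lay above 0 on both arrays, but Rplp1 was at -0.051 and -0.12 with the scanner software's ratio. Rplp0, the base of the stalk, had withdrawal-array log2 signals of 17.28 (green) and 17.43 (red), and 17.26 (green) and 17.55 (red) on the other array. The ratios were 0.15 and 0.29, and both of its probes gave nearly the same values. With the scanner software's ratio the first was -0.03. Rplp2 read 0.17 and 0.27, Rplp1 0.02 and 0.01, and Rplp1l1 0.08 and 0.12. Rplp0 and Rplp2 are among the brightest members.

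Of the 10 paralogs, 8 were measured. Their medians were -0.07 and 0.09 with a sum of -0.14, while the other 71 members had 0.05, 0.17 and 0.22. This set was formed by symbol and holds Rps4x itself beside Rps4y2, so it is not made of copies alone. Rps4x, the X-linked small-subunit protein, had withdrawal-array log2 signals of 15.14 (green) and 14.82 (red), and 14.92 (green) and 14.98 (red) on the other array. Its ratio was -0.32 ± 0.04 (SD over 10 spots of 1 probe) and 0.06 ± 0.04 (SD over 10 spots). Without loess the first was -0.05 relative to all genes.

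Rps4y2 was the lowest member on the array labelled Bcl-2, at -0.28, but its 2 probes differed, at -0.48 and -0.09, and on the withdrawal array they lay at 0.14 and -0.26. With the brightest probe alone its difference turned from -0.22 to 0.17. Rpl39l1 and Rps12l4 were dim, with log2 signals of 6.97 to 7.13 and of 7.03 to 7.16, and read -0.08 and -0.16, and -0.03 and -0.04. In the authors' deposited value table Rpl39l1 was at -0.86 on the array labelled Bcl-2, and Rps12l4 at 0.41 on the withdrawal array. Rpl36al1 read -0.02 and 0.14, and Rpl37l1 read -0.15 and 0.12.

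By promoter, the 48 measured members with a pyrimidine run of at least 6 had medians of 0.06 (withdrawal) and 0.16 (Bcl-2), and the 15 with a shorter run had 0.00 and 0.12. The sums were 0.22 and 0.06, and the differences 0.10 and 0.12. The ranges of both sets overlapped over nearly their whole length: the sums ran from -0.34 to 0.82 with a run and from -0.25 to 0.97 without. Rpl22l1 and Rpl41, at opposite ends of the withdrawal array, are both among those without a run, as printed above. Rpl19 and Rps26, at opposite sides of 0 on that array, both have one.

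Ribosomal proteins that the rule leaves out by name gave no common direction. Rack1, a scaffold on the small subunit, read -0.30 and 0.33, while Fau, the precursor of a small-subunit protein, read 0.05 and 0.12. Rpsa, which also serves as a laminin receptor, read -0.13 and -0.22. Rps27a, a member made as a fusion with ubiquitin, read 0.12 and 0.15.

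The 67 proteins of the mitochondrial ribosome, a separate set of genes for the ribosome inside mitochondria, had medians of -0.06 and 0.03. On the withdrawal array 4 were at least 1.2-fold towards red (5.97%, against 23.9% of all genes) and 12 towards green (17.9%, against 15.6%). On the other array 11 (16.4%, against 13.8%) and 3 (4.48%, against 20.8%) were so. Mrps34 read -0.73 and 0.35, Mrps27 -0.55 and 0.42, and Mrpl38 -0.43 and 0.45. In these the sign was turned between the arrays, as in Rpl15, but it was turned the other way in Mrpl36 (0.29 and -0.30) and Mrps16 (0.29 and -0.29). Mrpl37 read -0.03 and -0.35.

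Initiation and elongation factors had lower medians than the ribosomal proteins on the withdrawal array, under each alternative run. The 39 initiation factors had medians of -0.18 and 0.12, with 0 genes at least 1.2-fold towards red (against 23.9% of all genes) and 16 towards green (41.0%, against 15.6%) on the first array. On the second 9 (23.1%, against 13.8%) and 3 (7.69%, against 20.8%) were so. Eif1a, which helps find the start codon, read -0.84 and 0.40, and Eif4e, the cap-binding protein, -0.33 and 0.49. Eif2b3, a subunit of the factor that recharges Eif2, read -0.60 and 0.40, whereas another subunit, Eif2b2, read 0.06 and -0.33, and Eif1b read 0.22 and -0.31. The 9 elongation factors had -0.17 and 0.06. Eif5a and Eif5a2 are counted in both lists, and Eef1e1 is listed for its name. Eef1a1, which delivers tRNAs and whose mRNA is a very abundant TOP mRNA, read 0.24 and -0.0049, whereas Eef1e1 read -0.66 and 0.55 and Eif5a2 0.20 and -0.33. Eef1b2 read -0.19 and 0.33, Eif5a -0.38 and 0.16, and Eef1g -0.06 and -0.02. None of these differences from the ribosomal proteins was tested, and without loess the medians of the elongation factors were 0.17 and 0.42 relative to all genes.

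The 8 other TOP mRNAs had medians of -0.18 and 0.07. Nap1l1, a histone chaperone, read -0.53 and 0.67, Npm1, a nucleolar protein of ribosome assembly, -0.45 and 0.54, and Vim, a precursor filament protein, -0.49 and 0.56. Tpt1 read 0.08 and -0.21, so these mRNAs lay on both sides of 0 on each array.

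Among 19 genes of mTOR signalling and of the control of ribosome synthesis, 2 were at least 1.2-fold towards red (10.5%, against 23.9% of all genes) and 8 towards green (42.1%, against 15.6%) on the withdrawal array, with a median of -0.20. On the other array 5 (27.8%, against 13.8%) and 4 (22.2%, against 20.8%) of 18 were so, with a median of 0.04. Myc, which activates ribosomal genes, had the lowest ratio on the withdrawal array, -1.40, and the highest on the other, 0.86. Mycn read 0.35 and -0.05. Pdcd4, which blocks an initiation helicase and is removed after S6 kinase action, read 0.97 and -0.91. The S6 kinase gene Rps6kb1 read -0.46 and 0.28, and Mtor itself -0.20 and 0.08. These genes had no common direction: Rps6kb2, the other S6 kinase gene, read -0.02 and -0.39, and Rptor read 0.24 and -0.18. Rps6ka1 read -0.89 and 0.61. The ratios of Myc and Pdcd4 are larger than that of any ribosomal protein gene on either array.

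**Figure D4:**
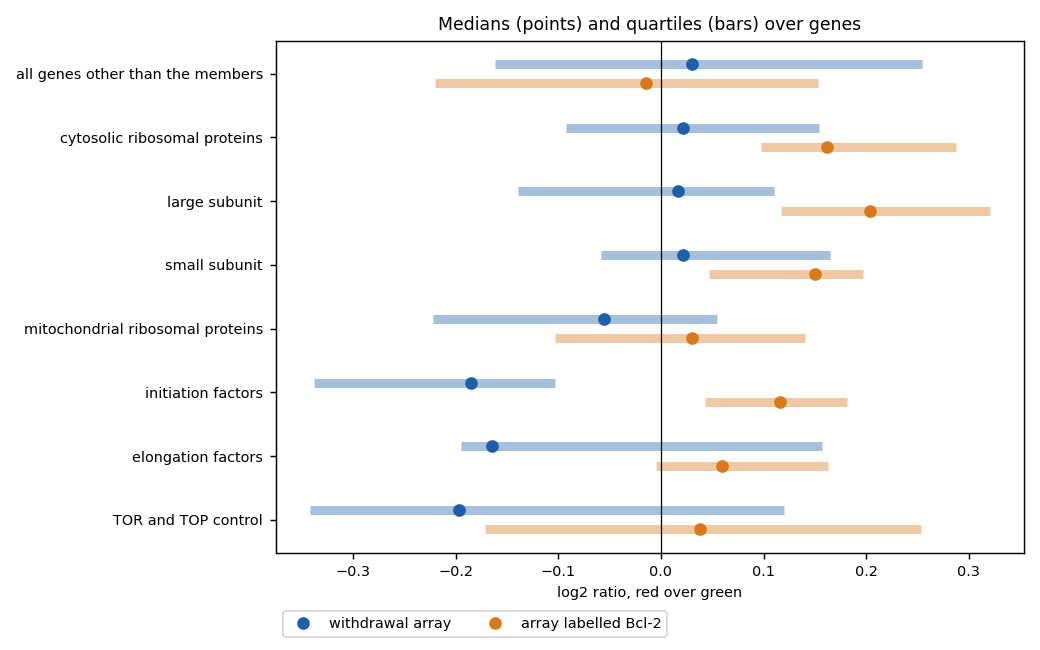
Median (points) and quartiles (bars) over genes of the log2 ratio of red over green on the withdrawal array and on the array labelled Bcl-2, for the ribosomal proteins, their subunits and related gene lists; bars show the spread between genes, not an error. The ribosomal proteins have medians of 0.02 and 0.16, and the initiation factors of -0.18 and 0.12.

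**Figure D5:**
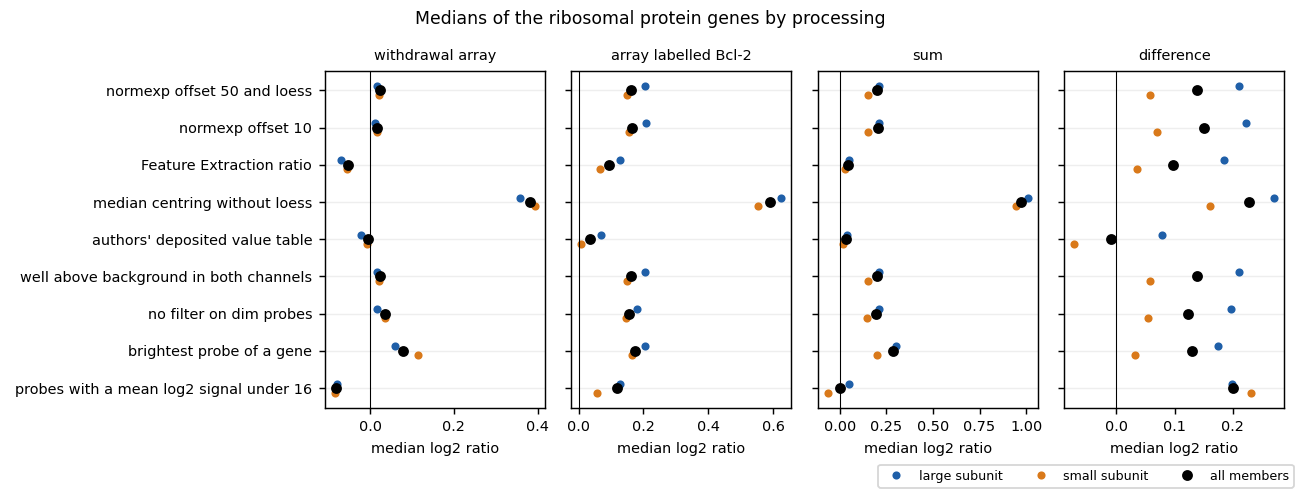
Median log2 ratio of all measured members and of each subunit on each array, for the sum and for the difference (Bcl-2 minus withdrawal), under each way of processing; the values without loess and of the value table are relative to the shift of all genes, and the panels have different scales. Without loess the sum reaches 0.97, and with the authors' deposited value table it is 0.03.

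The plot of medians by processing shows that the median of the family moved more between ways of processing than between the arrays. Without loess the medians were 0.38 and 0.59 relative to all genes and 54 and 76 members were at least 1.2-fold towards red, against 27.5% and 15.6% of all genes. In the authors' deposited value table this held for 5 on each array, against 31.1% and 22.8%. The opposite ratios of Rpl15 and Rpl22l1 kept their signs on both arrays in each alternative run.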

How the data were processed

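The deposited scanner files hold, per the file headers, spot and background intensity as medians over pixels, not normalized, from Feature Extraction 11.5.1.1 with protocol GE2_1105_Oct12 on array design 028282 (build rn4); the submitters' processing notes name version 8.5.1.1. They also hold the deposited log10 ratio, its p-value from the spot noise model (not used here), and other deposited flags of each spot. The authors' deposited value table gives a linear ratio in 2 columns of 29782 probes (medians 0.932 and 0.944), with scale, centring and direction not stated. Over 28395 matched probes, within 0.05 on the log2 scale after a constant, the first column equalled the red over green ratio of the withdrawal array for 100% and the second the product of both arrays' ratios for 100% (its own array's ratio for 7.06%). The quotient of the columns was used for the array labelled Bcl-2.

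Background was corrected by normexp (offset 50) and each array was normalized by loess, in which control spots had weight 0 (limma 3.58.1, R 4.3.3). Channel values were also scaled between arrays by Aquantile. Of 44254 spots, 42877 carried genes; 534 and 576 outlier spots were left out and 0 were saturated. Between 66.1% and 72.0% of spots were well above background in a channel, and median net signals were 189 to 284.5. Spots of a probe were averaged, probes above background in at least 1 channel were kept (20328 and 19026), and a gene is the median of its probes. Probes were named through RefSeq accessions (60.4%), so symbols are those of GRCr8. The number of arrays limits the precision. The scripts were tested on simulated data.

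The members and lists were chosen with earlier results of these data known. Named genes are the paralogs, the stalk proteins, the 5 highest and 5 lowest members in each measure, members whose probes disagree, 2 typical members, ribosomal proteins outside the rule, and the 2 highest and 2 lowest of each other list. Rpl7, Rpl9, Rpl11, Rpl22, Rpl23a, Rpl24, Rpl28, Rps3, Rps3a, Rps6, Rps27a, Npm1, Mtor, Rptor and Rps6kb1 were added after their values were seen. Alternatives were a normexp offset of 10, the Feature Extraction ratio, no loess, the value table, filters on dim probes, the brightest probe, and, added after seeing the data, probes with a mean log2 signal under 16. 1 gene of the list of ribosomal proteins outside the rule is not reported here and was left out of that list.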

Additional observations from a re-analysis of the deposited data

Results flagged for a closer look

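2 members had ratios of at least 1.2-fold in opposite directions on the arrays. How many of all genes did so was not counted. Over all gene spots the arrays had a Pearson's r of -0.67. Some mitochondrial ribosomal proteins also had such ratios, among them Mrps34 (-0.73 and 0.35) and Mrps16 (0.29 and -0.29). Taking the withdrawal array's log2 ratio from that of the array labelled Bcl-2 gave 1.18 for Rpl15 and 0.97 for Rpl22l1. With 1 array for each comparison the difference was not tested.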

How the results depend on the processing

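No paired analysis was possible because each comparison has 1 array and the labels give no replicate numbers. Without loess the median of all genes moved by 0.14 (withdrawal) and -0.06 (Bcl-2), and in the value table by 0.13 and -0.09; values of both are relative to that shift. Values are ordered withdrawal array, array labelled Bcl-2, sum, difference unless named, and the cause of each move was not tested.

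With the Feature Extraction ratio the medians of all members were -0.052, 0.095 and 0.045 (sum), of the large subunit -0.070, 0.13 and 0.051, of the small subunit -0.057, 0.067 and 0.029, of the stalk 0.0051 and 0.079, and, on the array labelled Bcl-2, of mTOR and TOP control 0.13 and of the ribosomal proteins outside the rule -0.0059. At least 1.2-fold towards red were 4, 8 and 9 (sum) members, and towards green 3 on the array labelled Bcl-2, 5 in the sum and 5 in the difference. Of all genes 27.7%, 27.9% and 16.5% (sum) were so towards red. Towards green 24.6% were so on the array labelled Bcl-2, 14.9% in the sum and 33.5% in the difference.

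In the authors' deposited value table the medians were, for the array labelled Bcl-2, sum and difference, 0.036, 0.035 and -0.0086 over all members, 0.069, 0.040 and 0.078 for the large subunit and 0.0084, 0.018 and -0.072 for the small subunit. On the array labelled Bcl-2 the stalk had 0.021 and the ribosomal proteins outside the rule -0.064. At least 1.2-fold above 0 were 5, 5, 9 and 13 members, and below 0 were 3, 5 and 7 (array labelled Bcl-2, sum, difference). Of all genes 31.1%, 22.8%, 15.8% and 33.5% were so above 0, and 28.5%, 15.8% and 37.9% below 0, in the same orders.

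Without loess the medians were 0.38, 0.59, 0.97 and 0.23 over all members, 0.36, 0.63 and 1.01 (sum) for the large subunit, 0.39, 0.55, 0.95 and 0.16 for the small subunit, and 0.48 and 0.64 for the stalk. On both arrays the ribosomal proteins outside the rule had 0.11 and 0.56, the elongation factors 0.17 and 0.42, the initiation factors -0.048 and 0.18, and the other TOP mRNAs 0.058 and 0.43. On the withdrawal array the mitochondrial ribosomal proteins had 0.082 and mTOR and TOP control -0.13. At least 1.2-fold towards red were 54, 76 and 72 (sum) members, 0 towards green on the array labelled Bcl-2, and 1 at least 2-fold towards red on each array. Of all genes 27.5%, 15.6% and 18.6% (sum) were at least 1.2-fold towards red, and 21.0% towards green on the array labelled Bcl-2. The share of all genes at 2-fold was not counted without loess. The sign turned for Rpl5 on the withdrawal array (0.019) and for the sums of Rps26 (0.18), Rpsa (0.14), Eif2b2 (0.14) and Mrpl37 (0.11).

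With the brightest probe of a gene the large subunit had a sum of 0.30 and the small subunit 0.12 on the withdrawal array. There 15 members were at least 1.2-fold towards red, against 25.1% of all genes, and 0 were towards green on the other, against 22.0%. With an offset of 10, 2 members were at least 1.2-fold below 0 in the difference, against 35.9% of all genes. With probes under a signal of 16 the medians were -0.082 and 0.0014 (sum) over 41 members, -0.081, 0.13 and 0.048 (sum) for the large subunit, -0.085, 0.058, -0.065 and 0.23 for the small subunit, 0.12 for the 1 stalk gene on the array labelled Bcl-2, and 0.049 there for the ribosomal proteins outside the rule. At least 1.2-fold above 0 were then 0, 5, 0 and 16 members, and below 0 were 4 in the sum and 0 in the difference. Of all genes 23.7%, 13.6%, 11.3% and 25.8% were so above 0, and below 0 were 9.81% in the sum and 33.7% in the difference. The filters on dim probes moved no median by more than the spot SD and no count of calls by more than 1.5 times. Spots of 1 probe give the only error, so a difference between cultures has no measured precision.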
